A study of Caenorhabditis elegans with 15 samples.

Results

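The comparison asks what resveratrol changed in worms that were already fed sucrose and stearic acid together. Its members are all genes that passed a filter on low counts in the 6 libraries of the suc-ste-res and suc-ste groups, and no measured difference was used to choose them. Of the 16196 genes in the table of the series, 12591 passed and were tested, and 12025 of those carry a gene name. The 3605 genes left out held 0.0347% to 0.0436% of the counts in each of the 6 libraries. Both groups were wild-type Caenorhabditis elegans, taken as whole animals at the L4 larval stage, and both received 400 mM sucrose together with stearic acid, one of the saturated fatty acids. The suc-ste-res group also received resveratrol, a plant polyphenol. The sample labels give 500 mg/mL for stearic acid and for resveratrol, while the study's methods write micrograms and the title of one of its supplementary files gives another resveratrol concentration, so the dose is uncertain. Resveratrol was dissolved in DMSO, and the methods do not say whether the suc-ste plates held DMSO, so an effect of the solvent cannot be told apart from one of resveratrol. Each group had 3 libraries, and the control, suc and ste groups of the same series supply levels for reference.

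Foreign small molecules are removed in worms, as in other animals, in steps. Cytochrome P450 enzymes and short-chain dehydrogenases modify the molecule, glutathione S-transferases (gst genes) and UDP-glucuronosyltransferases (ugt genes) attach glutathione or a sugar to it, and ABC transporters such as the P-glycoproteins (pgp genes) pump it out of the cell. Work on resveratrol in this species has centred on the deacetylase gene sir-2.1 and on abu-11, a gene linked to the unfolded protein response of the endoplasmic reticulum (ER).

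The 6 libraries held 19523425 to 20725453 counts each. The first principal component of their normalised counts carried 39.6% of the variance and did not separate the groups: it placed the third suc-ste library (26.55) and the second suc-ste-res library (20.09) apart from the other 4 (-21.87 to -4.04). The same 2 libraries were the highest in oocyte and germline genes, and values without them are given for the main results below. On the second component (19.2%) these 2 lay at opposite ends, at 16.2 and -22.69. The third suc-ste-res library, at the other end of the first component (-21.87), was the lowest in oocyte and germline genes. Yolk protein transcripts, which belong to the late L4 and adult intestine, were present in every library, with vit-2 at 2486 to 5085 CPM (normalised counts, scaled to library size with TMM factors). Intestine, muscle, pharynx, hypodermis and neuron markers were all measured.

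R02C2.7 and the glucuronosyltransferase gene ugt-41 passed the test, and both rose. A differentially expressed gene (DEG) had to change at least 2-fold with p, adjusted by Benjamini-Hochberg in edgeR's quasi-likelihood test, no larger than 0.05, and these 2 of 12591 genes did (0.0159%). No gene was called lower. The DESeq2 test called 6 higher and 4 lower. Without the 2-fold minimum, DESeq2 gave an adjusted p of 0.05 or less for 19 genes, 8 higher and 11 lower. They include 18 of the 23 leading genes described below, among them F17A9.4, amt-1 and pgp-3, so the call of single genes depends on the test. The leading genes were picked from these same libraries, mostly by their edgeR values, so the overlap is no independent check. Before adjustment, p was 0.05 or smaller for 221 higher genes (1.76%) and 332 lower genes (2.64%), or 553 either way (4.39%). With library totals as the only scaling, these became 155 higher and 446 lower. With DESeq2 size factors they were 245 higher and 316 lower, so the scaling changed the size of the excess but not its direction. Without the second suc-ste library they were 366 higher and 288 lower, and with the oocyte list mean as a covariate 709 higher and 645 lower. Which direction is in excess thus depends on that library and on that covariate. Another contrast of the series gives a scale: 1223 of 12781 genes were DEGs (9.57%) between the suc-ste group and the control.

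The data also bound the size of the changes. The median absolute log2 fold change was 0.0938, and 95% of the genes lay within 0.4414 and 99% within 0.7554 on the log2 scale. The 95% interval of the change lay wholly inside 2-fold in either direction for 11209 genes (89%) and inside 1.5-fold for 8569 genes (68.1%). Precision followed the count. Among 2360 genes with a mean under 50 counts, 49.6% of the intervals lay inside 2-fold, against 95.3% of 2615 genes at 50 to under 200 counts. Above that, 98.7% of 3692 genes at 200 to under 1000 counts, 99.3% of 3098 genes at 1000 to under 5000 and 99.9% of 826 genes at 5000 or more were bounded this way. Of the 1382 other genes, 1190 had a mean under 50 counts, and for 1380 a 2-fold change lay within the interval at this depth and replication. An interval lay wholly beyond 2-fold for R02C2.7 above and for the nuclear receptor gene nhr-155 below.

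**Figure D1:**
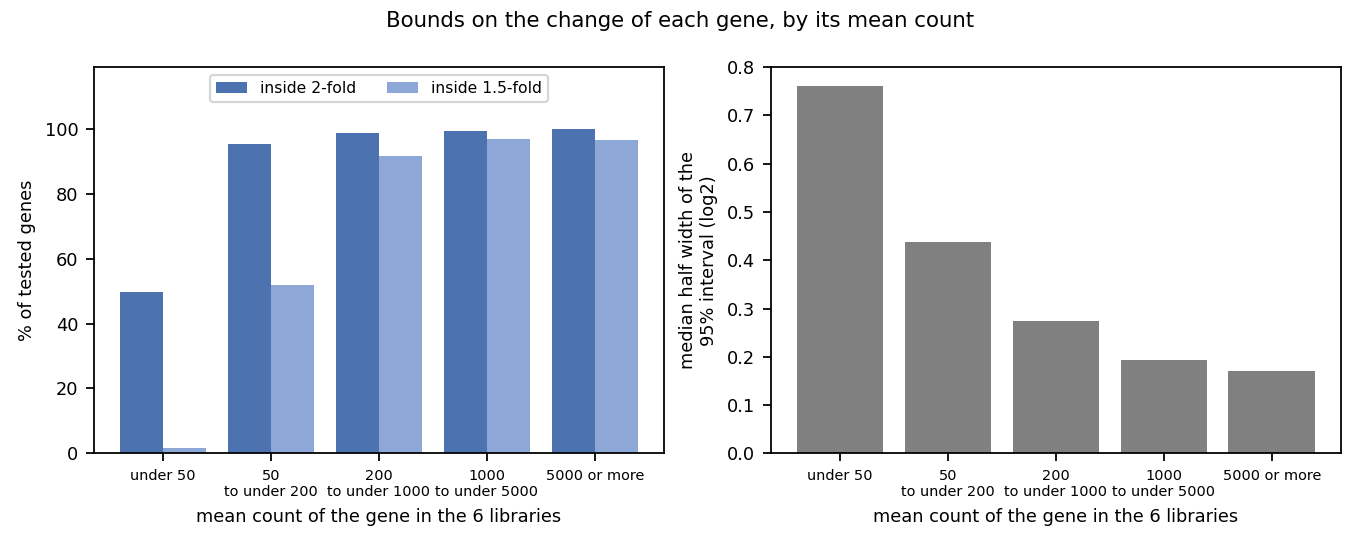
Left, the share of tested genes (%) whose 95% interval of the change lies inside 2-fold (dark bars) or 1.5-fold (light bars), by mean count in the 6 libraries; right, the median distance from the estimate to either end of that interval (log2). The share inside 2-fold goes from 49.6% in genes under 50 counts to 99.9% in genes of 5000 or more, while that median distance goes from 0.762 to 0.17.

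R02C2.7 showed the largest increase. This gene on chromosome V (241326 to 242618, minus strand, WBcel235) has 3 exons, and the annotation used here names no function for it. Its normalised counts were 3.08, 2.68 and 4.16 CPM in the suc-ste libraries and 13.8, 14.5 and 16.4 CPM in the suc-ste-res libraries. The lowest library with resveratrol was above the highest without it by more than the spread within either group. On the log2 scale, the fold change was 2.17 (SE 0.179, 95% interval, 1.76 to 2.57), or 4.49-fold, with an adjusted p of 0.00778 by edgeR's quasi-likelihood test. Without the first suc-ste library the adjusted p was 0.113 at a log2 fold change of 2.12, a fit with 5 libraries. Without the 2 libraries that stood apart, a fit chosen after the data were seen, the log2 fold change was 2.39 (edgeR adjusted p = 0.00298).

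The other DEG was ugt-41 on chromosome V (7161068 to 7163595, minus strand), a member of the family that attaches sugars to lipophilic molecules. Its level was 23.9, 31.7 and 26.7 CPM in suc-ste and 58.9, 58.3 and 64.2 CPM in suc-ste-res. The 3 libraries with resveratrol lay close together, and the groups were far apart. On the log2 scale, the fold change was 1.14 (SE 0.114, 95% interval, 0.88 to 1.40), or 2.20-fold, and the adjusted p was 0.0198 by the same edgeR test. The call did not survive the loss of most single libraries: the adjusted p of ugt-41 was 0.139 without the first and 0.082 without the third suc-ste library, and 0.151, 0.0577 and 0.0773 without the first, the second and the third suc-ste-res library. On the log2 scale, the fold change of ugt-41 stayed between 1.05 and 1.26 in these fits. Without the 2 libraries that stood apart it was 1.15 (edgeR adjusted p = 0.0307), again in a fit chosen after the data were seen.

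**Figure D2:**
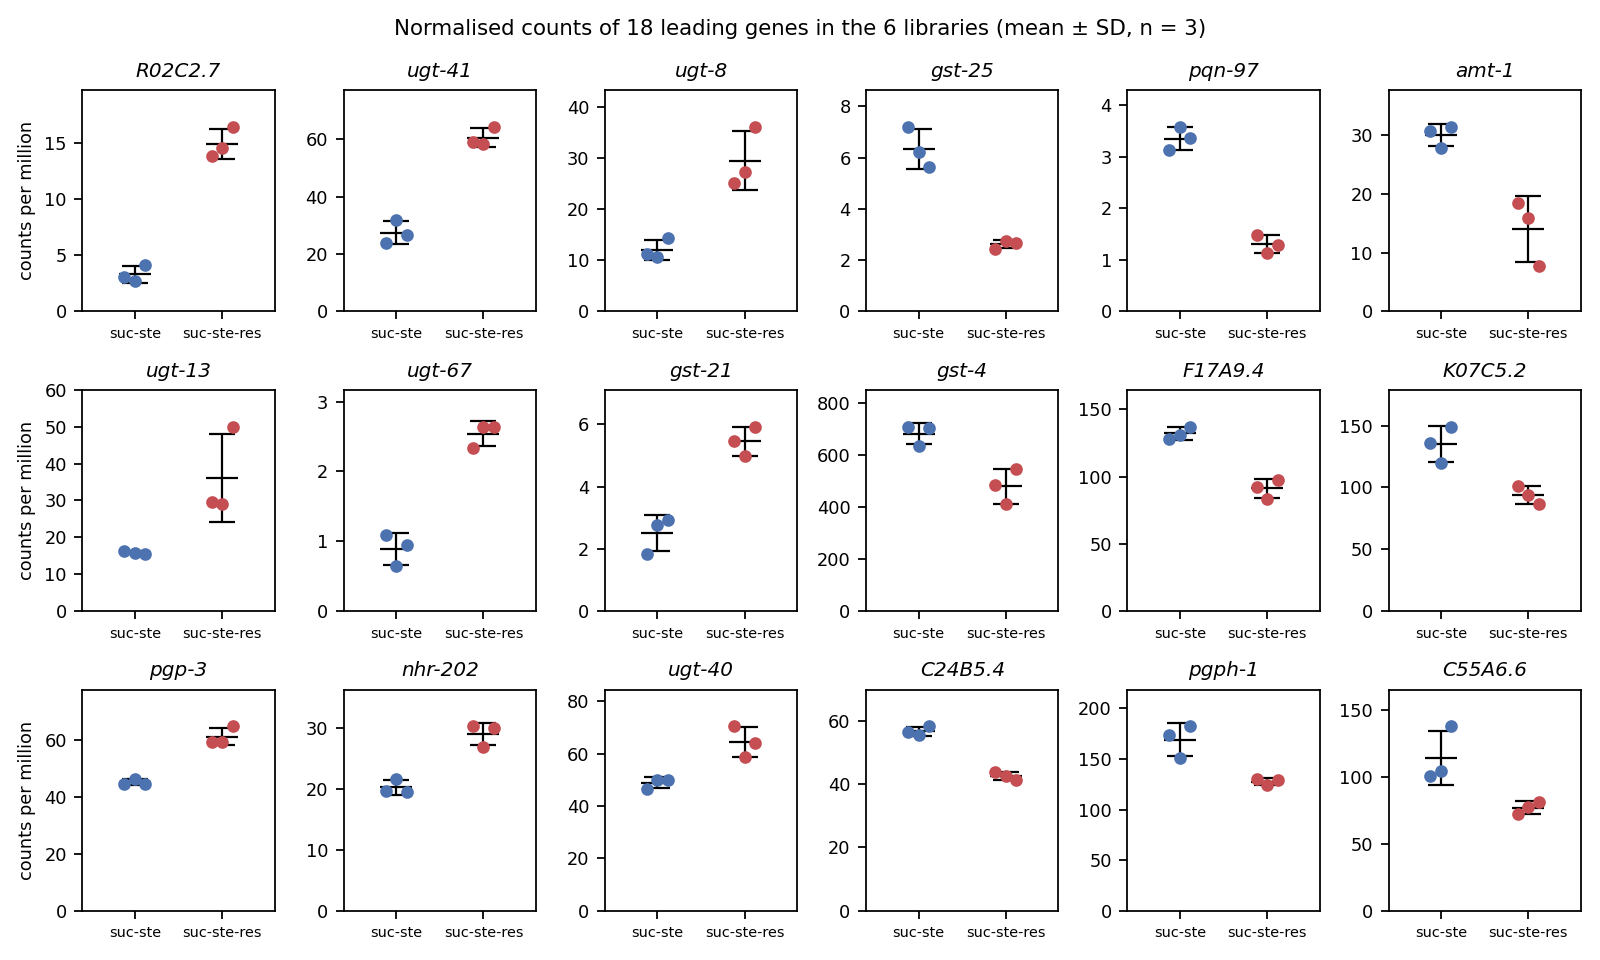
Normalised counts (CPM, linear axes from 0) of 18 leading genes in each library of the suc-ste (blue) and suc-ste-res (red) groups; points are libraries and black bars the mean and SD (n = 3). The 9 genes on the left had higher and the 9 on the right lower levels with resveratrol, with no overlap between the groups, and only R02C2.7 and ugt-41 passed the adjusted edgeR test.

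A run of neighbouring ugt genes on chromosome V stood out. In ugt-67 (4901374 to 4903272), ugt-8 (4903930 to 4905942) and ugt-13 (4908884 to 4911399), all on the plus strand, every library with resveratrol was above every library without it. Over all tested genes, 4.57% did not overlap in this direction. The genes were chosen after their values were seen, as leading genes of the comparison, so their grouping is a description.

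For ugt-8 the levels were 11.3, 10.6 and 14.3 CPM in suc-ste and 25.1, 27.3 and 36.1 CPM in suc-ste-res. All 3 libraries with resveratrol were above 25, and the third was the highest. On the log2 scale, the fold change of ugt-8 was 1.29 (95% interval, 0.91 to 1.67) with an adjusted p of 0.125 in edgeR. For ugt-13 the counts were 330, 318 and 314 against 595, 584 and 1005. The suc-ste libraries were nearly equal, and the third suc-ste-res library stood well above the others. Its log2 fold change was 1.19 (95% interval, 0.73 to 1.64, adjusted p = 0.332). For ugt-67, a gene of low count, the raw counts were 22, 13 and 19 against 47, 53 and 53, and the log2 fold change was 1.5 (95% interval, 0.90 to 2.09, adjusted p = 0.396). None of these 3 genes passed the adjusted edgeR test. DESeq2 gave adjusted p of 1.76e-09 for ugt-8, 4.52e-06 for ugt-13 and 0.0272 for ugt-67. With all 15 libraries in the fit, which estimates the spread from more samples, ugt-8 (adjusted p = 0.00617) and ugt-13 (adjusted p = 0.0207) were called higher.

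The next 2 ugt genes upstream were in the same direction with wide intervals. The log2 fold change was 0.89 for ugt-10 (95% interval, 0.13 to 1.65, unadjusted p = 0.026) and 0.52 for ugt-9 (95% interval, 0.05 to 0.99, unadjusted p = 0.035). Beyond them the direction ended: ugt-11 had -0.14 (95% interval, -0.54 to 0.25) and ugt-12 had -0.29 (95% interval, -0.64 to 0.06). On the far side H23N18.5, which is not a ugt gene, lay 312 bases from ugt-13 and had -0.15 (95% interval, -0.36 to 0.05). The gene ugt-14, between ugt-8 and ugt-13, was among those not tested. Family members of similar sequence can share reads, and how the counting treated reads that map to several places is not stated, so the split of counts among these neighbours is uncertain.

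**Figure D3:**
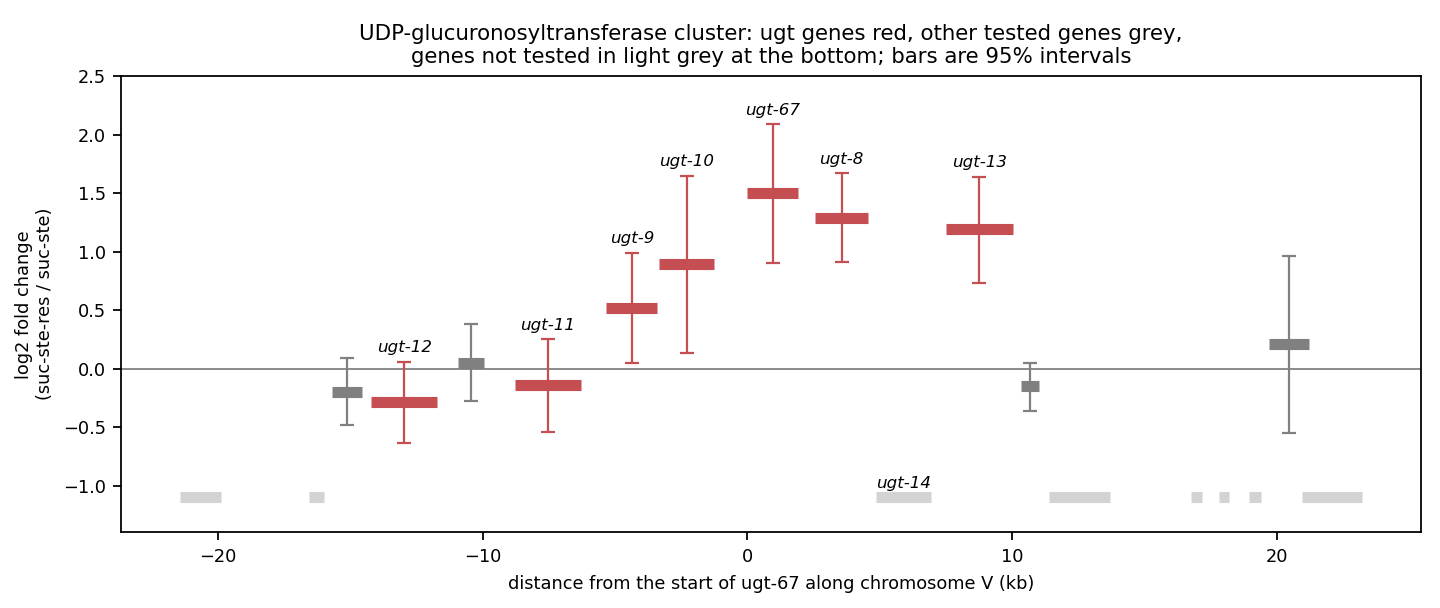
Log2 fold change (suc-ste-res over suc-ste) of the genes within 20000 bases of the start of ugt-67 against distance along chromosome V (kb); thick bars span each gene and thin bars are 95% intervals, with ugt genes in red and other tested genes in grey. The intervals of ugt-9, ugt-10, ugt-67, ugt-8 and ugt-13 lie above 0, and those of ugt-11 and ugt-12 include 0.

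The UDP-glucuronosyltransferase family as a whole did not shift one way. Of 55 members tested, 8 were higher (14.5%) and 6 lower (10.9%) at unadjusted p of 0.05 or below, and 1 passed the adjusted test. Over all genes, 1.76% were higher and 2.64% lower by p. The groups did not overlap upwards in 6 members (10.9%) and downwards in 13 (23.6%), beside 4.57% and 5.45% of all genes. The median log2 fold change of the family was -0.05, beside -0.0002 over all genes tested. Near ugt-41, ugt-40 had 46.5, 50.1 and 50.1 CPM in suc-ste and 70.4, 58.8 and 64.2 CPM in suc-ste-res, a log2 fold change of 0.40 (95% interval, 0.19 to 0.61, edgeR adjusted p = 0.871). It overlaps ugt-37 on the same strand in the annotation. A pair of further ugt genes of that stretch had intervals that include 0, ugt-39 at 0.29 (95% interval, -0.13 to 0.71) and ugt-36 at 0.09 (95% interval, -0.34 to 0.52).

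Other ugt genes were lower with resveratrol. The level of ugt-62 was 76.3, 73.4 and 97.1 CPM in suc-ste and 55.2, 64 and 49.4 CPM in suc-ste-res, with a log2 fold change of -0.55 (95% interval, -0.85 to -0.25, edgeR adjusted p = 0.999). The level of ugt-19 was 19.3, 17.9 and 28.1 CPM against 14.7, 12.1 and 13.8 CPM, a log2 fold change of -0.69 (95% interval, -1.08 to -0.29, adjusted p = 0.999). In both genes the third suc-ste library was the highest, and the groups did not overlap. For ugt-35 that library decided the size: the counts were 159, 167 and 467 against 96, 125 and 89, and the log2 fold change of -1.35 (95% interval, -2.25 to -0.45, adjusted p = 0.999) ranged from -1.61 to -0.66 when single libraries were left out. The gene overlaps aqp-6 on the other strand.

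Glutathione S-transferase genes were mostly lower. Of 38 members tested, 4 had a log2 fold change above 0, beside 49.9% of all genes, and 34 one below 0. By single-gene p, 10 were lower and 1 higher at unadjusted p of 0.05 or below, and none passed the adjusted edgeR test, while DESeq2 gave adjusted p of 9.35e-05 for gst-25, 0.0102 for gst-4, 0.0102 for gst-12 and 0.0113 for gst-21. The groups did not overlap in 10 members downwards and in 1 upwards. These 10 are 26.3% of the family, beside 2.64% of all genes by p and 5.45% by overlap, and the 1 is 2.63%, beside 1.76% and 4.57%. The median log2 fold change was -0.17, a difference in level of -11.3%. The mean deviation of the members from their 6-library mean was 0.147, 0.065 and 0.10 on the log2 scale in the suc-ste libraries and -0.095, -0.246 and 0.029 in the suc-ste-res libraries. The second suc-ste-res library, one of the 2 that stood apart, was the lowest, and the groups did not overlap. Without both of those libraries the median was -0.10.

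The gene gst-25, on chromosome I (1451081 to 1453070, minus strand), had the smallest p of the family. Its counts were 145, 125 and 114 in suc-ste and 49, 55 and 54 in suc-ste-res. The highest count with resveratrol, 55, was far below the lowest without it, 114. The log2 fold change of gst-25 was -1.28 (SE 0.174, 95% interval, -1.67 to -0.88) with an adjusted p of 0.126 in edgeR and of 0.0162 with all 15 libraries in the fit. The gene overlaps spe-15 on the other strand, which had a log2 fold change of 0.13 (95% interval, -0.16 to 0.41), and the use of strand in the counting is not stated.

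The most abundant of these genes was gst-4, whose promoter is a common reporter of the oxidative stress regulator SKN-1 in this species. Its level was 710.0, 636 and 705 CPM in suc-ste and 484, 413 and 547 CPM in suc-ste-res. The groups did not overlap, with a gap narrower than the range within the resveratrol group. The log2 fold change was -0.51 (95% interval, -0.73 to -0.28, edgeR adjusted p = 0.573), on a gene that overlaps dhs-12 on the same strand. For gst-12 the levels were 15, 15.1 and 13.8 CPM against 6.21, 6.72 and 10.5 CPM, a log2 fold change of -0.90 (95% interval, -1.34 to -0.46, adjusted p = 0.773). One member went the other way: gst-21 had 1.84, 2.78 and 2.92 CPM against 5.46, 4.97 and 5.92 CPM, with no overlap, and a log2 fold change of 1.12 (95% interval, 0.64 to 1.59, adjusted p = 0.461).

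Other families of foreign-compound handling had smaller median differences than the gst genes. Among 39 ABC transporters tested, 2 were higher (5.13%) and 1 lower (2.56%) at unadjusted p of 0.05 or below, beside 1.76% and 2.64% of all genes. Their median was 0.01. The P-glycoprotein gene pgp-3 had 44.7, 46.4 and 44.8 CPM in suc-ste and 59.5, 59.6 and 64.9 CPM in suc-ste-res. The suc-ste libraries were almost equal, and all 3 libraries with resveratrol were higher. The log2 fold change of pgp-3 was 0.44 (95% interval, 0.26 to 0.62, edgeR adjusted p = 0.411), and that of pgp-14 was 0.27 (95% interval, 0.11 to 0.43, adjusted p = 0.999).

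Cytochrome P450 genes were divided. Of 55 tested, 3 were higher (5.45%) and 6 lower (10.9%) at unadjusted p of 0.05 or below, beside 1.76% and 2.64% of all genes. Their median of -0.05 was 0.03 without the second suc-ste-res library and 0.001 without both libraries that stood apart. The highest by p was cyp-36A1, at 15.8, 19 and 15.1 CPM in suc-ste and 25.3, 20.8 and 28.3 CPM in suc-ste-res, with a log2 fold change of 0.58 (95% interval, 0.26 to 0.90, edgeR adjusted p = 0.999). Of 27 short-chain dehydrogenase (dhs) genes, 7 were lower and 1 higher, with a median of -0.10. By p that is 25.9% lower and 3.7% higher, beside 2.64% and 1.76% of all genes. By overlap it is 29.6% downwards, beside 5.45%, and these lower shares are like those of the gst genes. In dhs-25 the levels were 31.4, 30.9 and 26.6 CPM against 23.9, 21.5 and 24.1 CPM, without overlap, and the log2 fold change was -0.36 (95% interval, -0.59 to -0.12). All 5 flavin-containing monooxygenases had intervals inside 1.5-fold.

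Of 151 nuclear hormone receptor genes, transcription factors that sense small lipophilic molecules among other signals, 4 were higher and 2 lower at unadjusted p of 0.05 or below, with a median of 0.02. These shares of 2.65% and 1.32% are near the 1.76% and 2.64% of all genes. In nhr-202 the levels were 19.6, 21.6 and 19.5 CPM in suc-ste and 30.2, 26.9 and 29.9 CPM in suc-ste-res. The groups did not overlap and each was tight, in a gene that overlaps nhr-201. The log2 fold change of nhr-202 was 0.52 (95% interval, 0.29 to 0.74, edgeR adjusted p = 0.466). The counts of nhr-155 were 17, 13 and 19 against 3, 0 and 4, and its log2 fold change of -2.74 (95% interval, -4.11 to -1.37, adjusted p = 0.845) rests on these few reads.

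Among single genes outside these families, most of the leading ones were lower. The ammonium transporter gene amt-1 had 30.7, 27.9 and 31.4 CPM in suc-ste and 18.4, 15.9 and 7.71 CPM in suc-ste-res. The third library with resveratrol was the lowest by a wide margin, and the gene overlaps another on the opposite strand. The log2 fold change was -1.1 (95% interval, -1.68 to -0.52, edgeR adjusted p = 0.978). The counts of pqn-97, named for a glutamine- and asparagine-rich protein, were 63, 72 and 68 against 30, 23 and 26, with no overlap, and its log2 fold change was -1.35 (95% interval, -1.84 to -0.87, adjusted p = 0.246). The counts of sdz-30 were 42, 48 and 48 against 16, 0 and 16, a log2 fold change of -2.09 (95% interval, -3.46 to -0.73, adjusted p = 0.999). That change ran from -3.17 to -0.94 over the settings run. Libraries of other groups also differed among themselves in sdz-30, with 0, 1.54 and 1.73 CPM in control and 0, 0 and 1.09 CPM in ste.

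A second kind of leading gene was abundant and lower by a modest but even amount. F17A9.4 had 128, 131 and 137 CPM in suc-ste and 92.5, 83.5 and 97.5 CPM in suc-ste-res, a log2 fold change of -0.53 (95% interval, -0.71 to -0.35, edgeR adjusted p = 0.200). C24B5.4 had 56.5, 55.4 and 58.2 CPM against 43.8, 42.5 and 41.3 CPM, a log2 fold change of -0.42 (95% interval, -0.59 to -0.24, adjusted p = 0.443). In both the gap between the groups was wider than the range within either. K07C5.2 had a log2 fold change of -0.53, C55A6.6 one of -0.57, C05D11.5 one of -0.43 and pgph-1, which encodes a phosphatase of phosphoglycolate, one of -0.41, all without overlap and with adjusted p values from 0.411 to 0.723. The dock-11 gene was higher by 0.33 (95% interval, 0.16 to 0.51, adjusted p = 0.871).

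One leading gene depends on the unit. C54F6.5, a gene spanning chromosome V from 7529116 to 7529450, had counts of 197, 197 and 267 in suc-ste and 94, 108 and 114 in suc-ste-res, a log2 fold change of -1.06 (95% interval, -1.44 to -0.68, edgeR adjusted p = 0.246). The FPKM values of the authors for C54F6.5 were 56.2, 96.4 and 28.9 against 72.7, 270 and 90.6, and on log2(FPKM + 1) the change was 1.15. Counts and FPKM thus gave opposite directions for this gene.

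Beyond single genes, several families had most of their members below 0. In 4 of the 43 lists the mean deviation of the members did not overlap between the groups, and all 4 were lower: the glutathione S-transferases above, transthyretin-related genes, lysozymes with saposin-like genes, and fatty acid oxidation. Over all genes tested, 5.45% did not overlap downwards and 4.57% upwards, but these are shares of single genes and not of list means. How often list means separate without a treatment difference was not tested. In fatty acid oxidation the nearest libraries of the groups were at -0.010 and -0.016. By the summed CPM of their members, 2 of these lists overlapped. Lysozymes with saposin-like genes had 2932, 2955 and 3258 in suc-ste and 2734, 2594 and 3061 in suc-ste-res. Fatty acid oxidation had 10094, 10010 and 9915 against 10702, 8982 and 9916. The gst and ttr sums did not overlap. The lists describe these libraries, and no list was tested as a set.

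Transthyretin-related (ttr) genes, a large nematode family of small secreted proteins, had the lowest median of the lists with at least 12 tested members. Of 45 tested, 40 were below 0, 12 were lower and 1 higher at unadjusted p of 0.05 or below, and 15 did not overlap downwards. By p that is 26.7% lower and 2.22% higher, beside 2.64% and 1.76% of all genes, and by overlap 33.3%, beside 5.45%. The median was -0.22, or -14.1%. The mean deviations were 0.086, 0.019 and 0.168 in the suc-ste libraries and -0.097, -0.123 and -0.053 in the suc-ste-res libraries. An example is ttr-48, with 106, 102 and 113 CPM in suc-ste and 89.4, 83.4 and 94.1 CPM in suc-ste-res, a log2 fold change of -0.26 (95% interval, -0.44 to -0.09, edgeR adjusted p = 0.999). In ttr-8 the levels were 20.5, 15.3 and 19.7 CPM against 11.8, 13.5 and 14.1 CPM, a log2 fold change of -0.49 (95% interval, -0.81 to -0.18). Without the 2 libraries that stood apart the list median was -0.10.

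Lysozymes and saposin-like proteins digest or permeabilise bacteria and are typical of the intestine. Of 34 tested, 31 were below 0, 4 were lower and none higher at unadjusted p of 0.05 or below, and the median was -0.19. The 4 are 11.8% of the list, beside 2.64% of all genes. The mean deviations were 0.060, 0.039 and 0.171 in suc-ste and -0.097, -0.141 and -0.032 in suc-ste-res. The largest distances from the other libraries belonged to the 2 that stood apart, and without them the median was -0.05. The strongest single member was lys-10, with counts of 54, 51 and 69 against 20, 34 and 32 and a log2 fold change of -1.01 (95% interval, -1.61 to -0.41, edgeR adjusted p = 0.999). C-type lectins, another family of the intestine and of defence against bacteria, had no shared shift: of 99 tested, 1 was higher and 5 lower, with a median of -0.004. By p that is 1.01% higher and 5.05% lower, beside 1.76% and 2.64% of all genes. In clec-5 the levels were 16.8, 15.1 and 20.3 CPM against 8.39, 12.6 and 11.2 CPM, a log2 fold change of -0.70 (95% interval, -1.09 to -0.30).

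Genes of fatty acid oxidation, which bring fatty acids into mitochondria and peroxisomes and shorten them there, had a small and steadier shift. Of 58 tested, 45 were below 0, 6 were lower and none higher at unadjusted p of 0.05 or below, and 11 did not overlap downwards. By p that is 10.3% lower, beside 2.64% of all genes, and by overlap 19%, beside 5.45%. The median was -0.11, or -7.61%, and it stayed at -0.10 without the 2 libraries that stood apart. The mean deviations were 0.074, 0.052 and -0.010 in suc-ste and -0.040, -0.060 and -0.016 in suc-ste-res, so the third suc-ste library lay next to the resveratrol libraries. The acyl-CoA synthetase gene acs-22 had 149, 159 and 152 CPM against 133, 128 and 134 CPM, a log2 fold change of -0.22 (95% interval, -0.37 to -0.07). The carnitine palmitoyltransferase gene cpt-5 had 26.7, 25.6 and 25.8 CPM against 22.5, 20.1 and 21.7 CPM, a log2 fold change of -0.28 (95% interval, -0.49 to -0.07). Neither passed the adjusted edgeR test. Desaturases and elongases, which build fatty acids, had no call: of 29 tested, none was at unadjusted p of 0.05 or below, and 28 had intervals inside 2-fold.

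**Figure D4:**
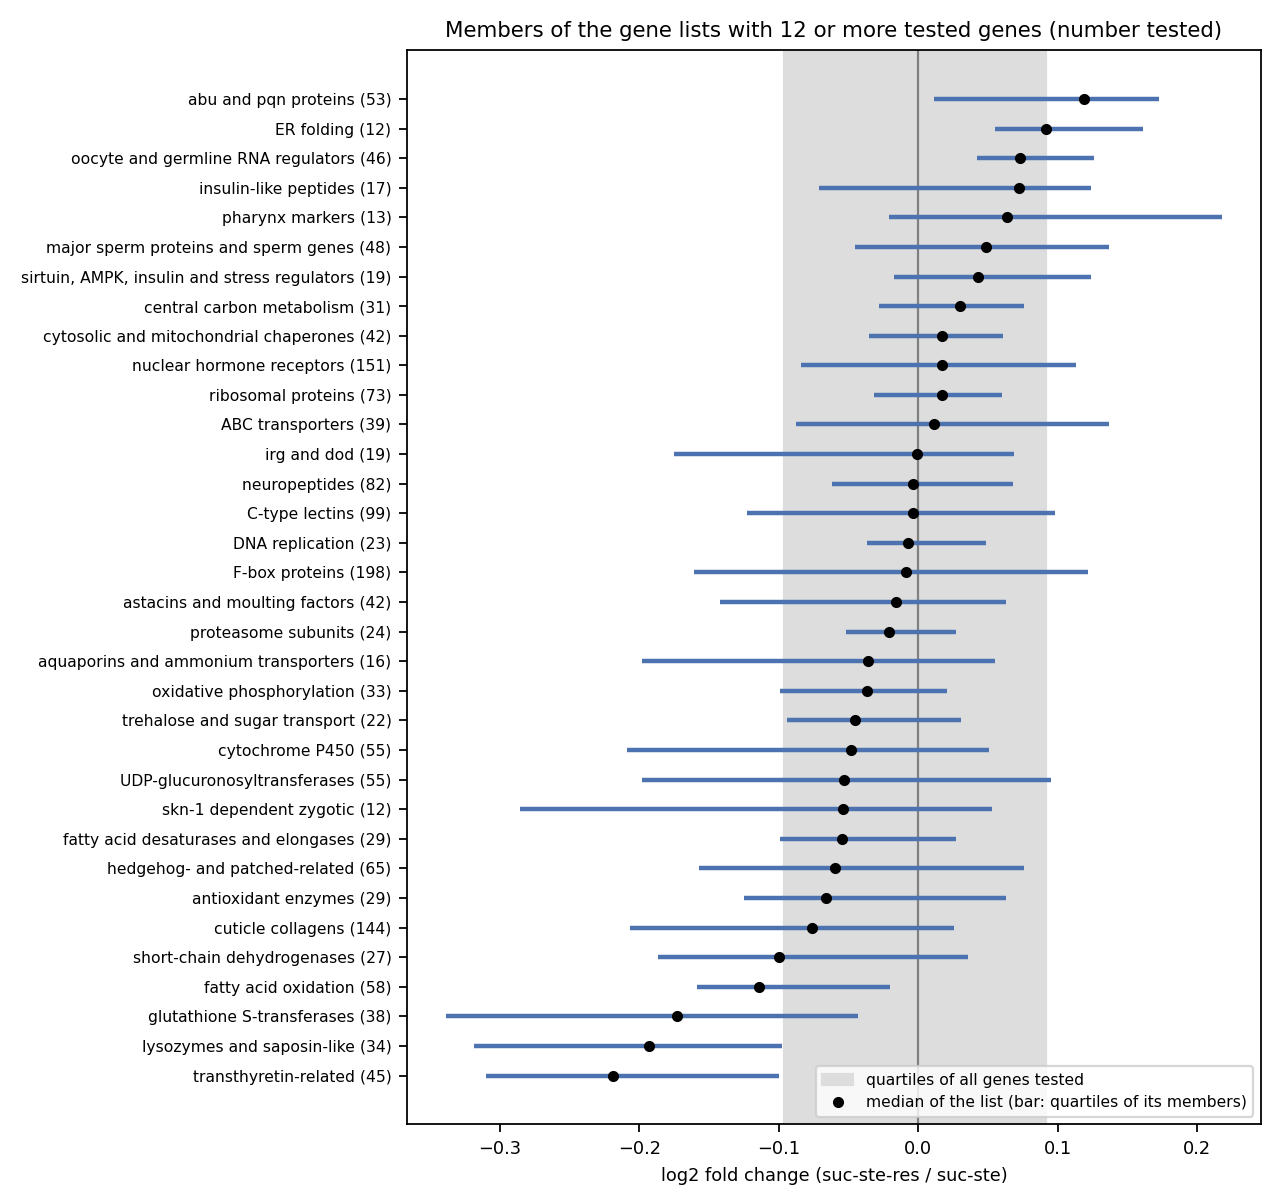
Log2 fold change (suc-ste-res over suc-ste) of the members of each gene list with 12 or more tested genes; points are medians, bars span the quartiles of the members, and the grey band spans the quartiles of all 12591 genes (-0.096 to 0.092). Transthyretin-related genes (-0.22), lysozymes with saposin-like genes (-0.19) and glutathione S-transferases (-0.17) have the lowest medians, and abu and pqn genes (0.12) the highest.

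The genes that earlier work ties to resveratrol had tight bounds. The level of sir-2.1 was 154, 151 and 164 CPM in suc-ste and 156, 153 and 145 CPM in suc-ste-res, with a log2 fold change of -0.05 (95% interval, -0.20 to 0.11). The level of abu-11 was 40.3, 41.8 and 32.8 CPM against 37.8, 39.0 and 44.8 CPM, with a log2 fold change of 0.08 (95% interval, -0.18 to 0.35). In both genes the groups overlapped, and a change of 1.5-fold lies outside the interval. Among 19 sirtuin, AMPK, insulin-signalling and stress regulators, none was at unadjusted p of 0.05 or below, and 18 had intervals inside 1.5-fold. Values for the transcription factor genes were 0.13 (95% interval, -0.11 to 0.37) for daf-16 and 0.04 (95% interval, -0.12 to 0.21) for skn-1.

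The abu and pqn genes, a family with glutamine- and asparagine-rich repeats, were mostly above 0. Of 53 tested, 41 were above 0, 4 were higher and 3 lower at unadjusted p of 0.05 or below, and the median was 0.12, the highest of the lists. By p that is 7.55% higher and 5.66% lower, beside 1.76% and 2.64% of all genes. The third suc-ste library was the lowest of the 6 by the mean deviation of the members (-0.156 against -0.038 to 0.096 in the other 5), and without it the median was 0.02. The ER folding genes had a median of 0.09, with 10 of 12 above 0, none at unadjusted p of 0.05 or below and all 12 intervals inside 1.5-fold. Their best known member, the BiP homologue hsp-4, had 434, 478 and 457 CPM in suc-ste and 421, 576 and 595 CPM in suc-ste-res, with overlapping groups and a log2 fold change of 0.22 (95% interval, -0.05 to 0.49).

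Antioxidant enzymes gave few differences. Of 29 tested, 1 was higher (3.45%) and 2 lower (6.9%) at unadjusted p of 0.05 or below, beside 1.76% and 2.64% of all genes. Their median was -0.07. The glutathione peroxidase gene gpx-1 had 14.8, 14.9 and 18.9 CPM in suc-ste and 11, 13.6 and 11.8 CPM in suc-ste-res, a log2 fold change of -0.42 (95% interval, -0.73 to -0.10). The superoxide dismutase gene sod-3, a common readout of DAF-16, had 54.5, 49.3 and 53.1 CPM against 45.9, 36.6 and 50.2 CPM, with overlapping groups and a log2 fold change of -0.24 (95% interval, -0.51 to 0.03).

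Genes of core cell functions had mostly narrow bounds. All 73 ribosomal protein genes tested had intervals inside 2-fold and 72 inside 1.5-fold, with a median of 0.02 that was -0.01 with library totals as the only scaling. All 24 proteasome subunits had intervals inside 1.5-fold, as did 32 of 33 genes of oxidative phosphorylation and 30 of 31 of central carbon metabolism. The median for oxidative phosphorylation was -0.04, and 0.02 without the 2 libraries that stood apart. The groups did not overlap downwards in 6 of its 33 genes (18.2%) and upwards in 2 (6.06%), beside 5.45% and 4.57% of all genes. Of 42 chaperones, 32 had intervals inside 1.5-fold. At unadjusted p of 0.05 or below, 1 of them was lower (2.38%), beside 2.64% of all genes. Osmotic response genes had 1 higher and 1 lower of 11 by the same threshold. That is 9.09% each way, beside 1.76% higher and 2.64% lower of all genes. Among them gpdh-2, which makes the glycerol precursor, had 646, 607 and 574 CPM in suc-ste and 515, 503 and 540 CPM in suc-ste-res, a log2 fold change of -0.23 (95% interval, -0.38 to -0.08).

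Lists of stage and germline followed single libraries more than the groups. Oocyte and germline regulators had a median of 0.07 with 41 of 46 above 0, and none at unadjusted p of 0.05 or below. Their mean deviations were -0.091, -0.151 and 0.134 in suc-ste and 0.038, 0.317 and -0.247 in suc-ste-res, so the resveratrol group held both the highest and the lowest library. Leaving out single libraries moved the median from -0.07 to 0.24, and it was 0.01 without the 2 libraries that stood apart. DNA replication genes, at -0.032, -0.126 and 0.160 against -0.001, 0.198 and -0.200, followed the same libraries. Pharynx markers were lowest in the third suc-ste library (-0.303 against -0.068 to 0.139 in the other 5). The 5 vitellogenins spread widely, with vit-2 at 2968, 3594 and 2486 CPM in suc-ste and 5085, 4104 and 3649 CPM in suc-ste-res, a log2 fold change of 0.50 (95% interval, 0.17 to 0.84, edgeR adjusted p = 0.999), and the other 4 at -0.52 to 0.29 with intervals that include 0. The part that these library differences have in the family shifts was not tested beyond the values given without the 2 libraries.

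**Figure D5:**
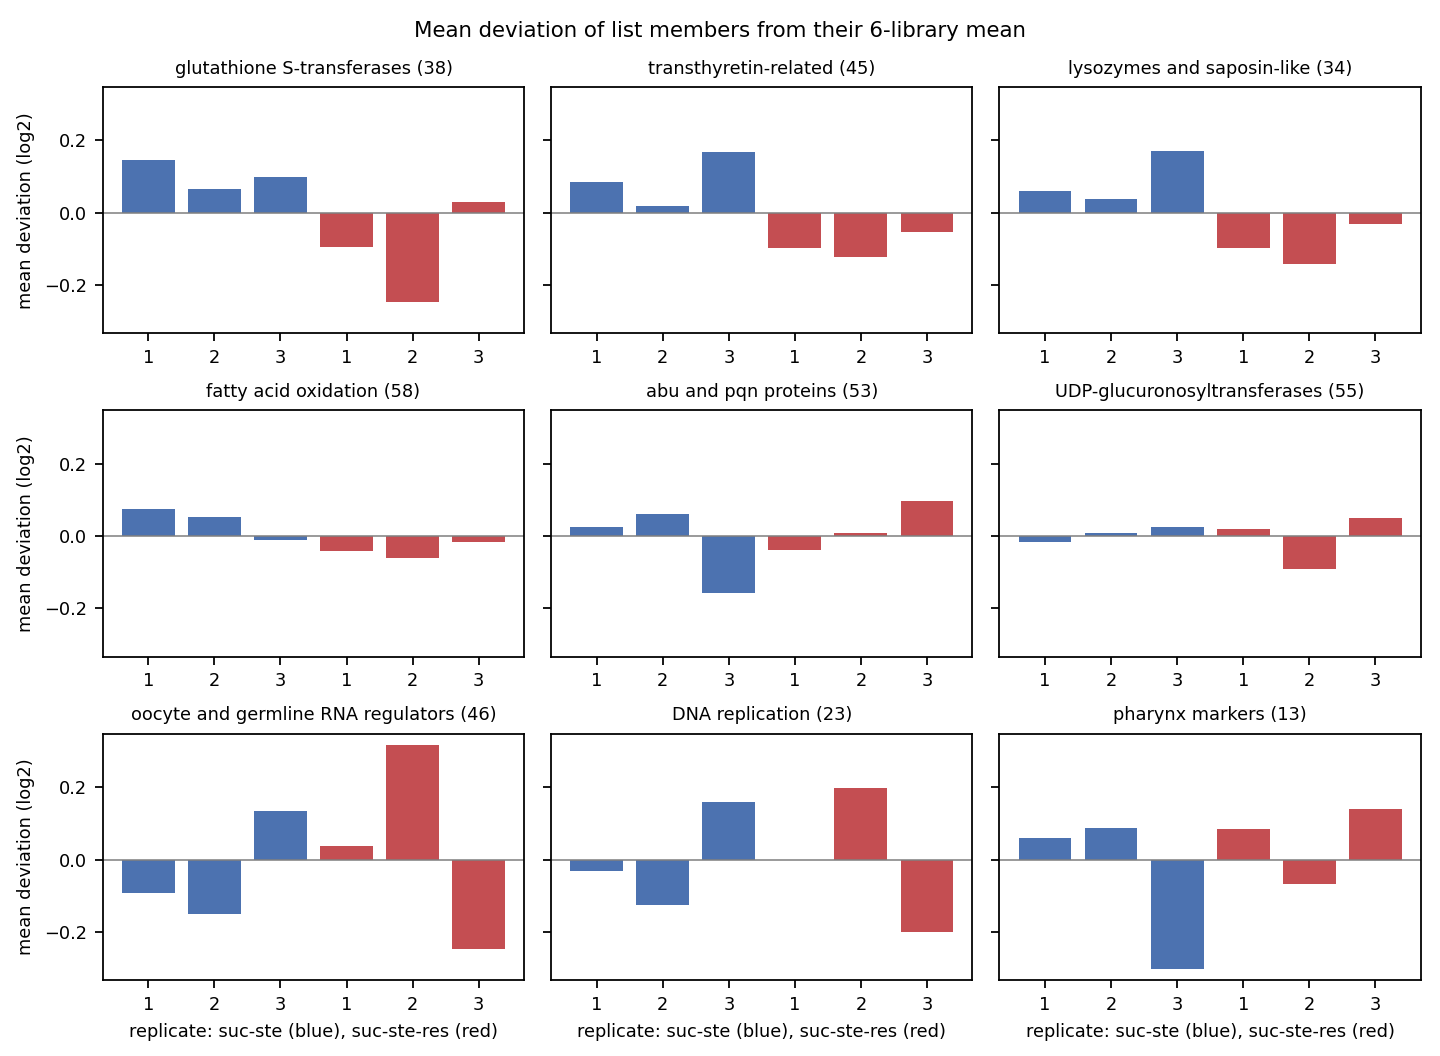
Mean deviation (log2) of the members of 9 gene lists from their 6-library mean, by library, for suc-ste (blue) and suc-ste-res (red); bars start at 0 and the number of tested genes is in brackets. By this mean, glutathione S-transferases, transthyretin-related genes, lysozymes and fatty acid oxidation genes are lower in every resveratrol library than in every suc-ste library, while oocyte genes range from -0.247 to 0.317 within the resveratrol group.

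Cuticle collagens, which mark the moults, had 10 genes lower and none higher of 144 at unadjusted p of 0.05 or below. That is 6.94% lower, beside 2.64% of all genes, but only 7 did not overlap downwards, or 4.86% beside 5.45%. Their median of -0.08 was 0.02 without the first suc-ste-res library and -0.18 without the 2 libraries that stood apart, so neither its size nor its sign was stable. In col-176 the levels were 476, 494 and 750.0 CPM in suc-ste and 401, 314 and 406 CPM in suc-ste-res, with a log2 fold change of -0.62 (95% interval, -1.01 to -0.23). The 8 hypodermis markers were all below 0, with a median of -0.11 and none at unadjusted p of 0.05 or below. Body wall muscle markers had 7 of 8 above 0 with a median of 0.08 that was 0.02 without those 2 libraries, intestine markers a median of -0.01 and neuron markers one of -0.02. In bulk samples, fewer cells of a type and less RNA per cell cannot be told apart.

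The pathway annotation in the deposited table gives another grouping, with 64 KEGG pathways of at least 15 tested genes. The lowest medians were those of xenobiotic metabolism by cytochrome P450 (-0.15, 9 of 25 genes lower and none higher at unadjusted p of 0.05 or below) and of drug metabolism by cytochrome P450 (-0.15, 9 of 29 lower). Glutathione metabolism had a median of -0.11 with 11 of 38 genes lower and none higher. In the order given, these are 36%, 31% and 28.9% lower, beside 2.64% of all genes. These pathways share genes with one another and with the lists: 5 of the lower genes in each were gst genes. Beyond the gst genes, glutathione metabolism held gspd-1, the glucose-6-phosphate dehydrogenase gene, at 124, 118 and 117 CPM in suc-ste and 109, 93.7 and 109 CPM in suc-ste-res, with a log2 fold change of -0.20 (95% interval, -0.38 to -0.02). The aldehyde dehydrogenase gene alh-5 in the cytochrome P450 pathways had 136, 136 and 133 CPM against 121, 108 and 113 CPM, a log2 fold change of -0.25 (95% interval, -0.41 to -0.09). The highest pathway medians were small, at 0.06 for Notch, 0.05 for mTOR and 0.05 for FoxO signalling. Of the 64 medians, 45 were below 0 and 17 above. Many lay close to 0, such as -0.003 for purine metabolism, and the scaling can move medians across it. With library totals as the only scaling, that of the ribosomal protein list went from 0.02 to -0.01.

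Levels in the other groups place these genes. The values are FPKM (fragments scaled to gene length and library size) as the authors calculated them, as mean ± SD of 3 libraries. R02C2.7 was at 55.7 ± 9.15 in control, 28.1 ± 2.66 in suc, 40.2 ± 7.65 in ste, 31.3 ± 4.78 in suc-ste and 147 ± 13.1 in suc-ste-res. The suc-ste-res group was thus above every other group, and the suc and suc-ste groups did not differ beyond their spread. In edgeR, R02C2.7 had a log2 fold change of -1.01 for suc-ste against control (adjusted p = 0.0188) and of 1.14 for suc-ste-res against control (adjusted p = 0.00231). These comparisons share libraries with the main one, so the values stand side by side only.

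The glucuronosyltransferase ugt-41 was at 16 ± 0.774 in control, 17.9 ± 2.37 in suc, 45.9 ± 8.19 in ste, 25.2 ± 3.28 in suc-ste and 54.2 ± 3.77 in suc-ste-res. Its resveratrol level was thus near that of stearic acid alone. The neighbours on chromosome V had another pattern. In ugt-8 the levels were 52.7 ± 5.18 in control, 9.82 ± 1.80 in suc, 45.5 ± 6.33 in ste, 6.99 ± 0.654 in suc-ste and 17.4 ± 3.08 in suc-ste-res. In ugt-13 they were 67 ± 7.53, 17.2 ± 1.10, 44.0 ± 5.89, 11.8 ± 0.279 and 27.3 ± 9.05 in the same order. Both genes were low wherever sucrose was given, and with resveratrol they remained below control, with log2 fold changes against control of -1.68 for ugt-8 (adjusted p = 7.3e-05 in edgeR) and -1.27 for ugt-13 (adjusted p = 0.00226).

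Genes that were lower with resveratrol lay on either side of control. Of those high under sucrose, gst-4 is the most abundant. For gst-4 the levels were 244 ± 28.9 in control, 1212 ± 147 in suc, 682 ± 84.1 in ste, 1044 ± 92.6 in suc-ste and 727 ± 126 in suc-ste-res. For amt-1 they were 2.23 ± 1.25, 27.8 ± 5.62, 6.67 ± 0.811, 25.8 ± 1.2 and 12.3 ± 4.93. For pgph-1 they were 16.9 ± 4.90, 193 ± 25, 31.3 ± 4.44, 182 ± 15.1 and 141 ± 3.87. In each of the 3 the resveratrol level lay between suc-ste and control and stayed above control, where the log2 fold changes were 1.35 for gst-4 (adjusted p = 8.8e-05 in edgeR), 2.54 for amt-1 (adjusted p = 0.00209) and 3.03 for pgph-1 (adjusted p = 7e-06). For gst-25 the levels were 5.30 ± 0.887, 13.9 ± 1.95, 15.9 ± 2.05, 17 ± 2.38 and 7.13 ± 0.401, and its difference from control with resveratrol was 0.31 on the log2 scale (adjusted p = 0.434). Against the suc group, gst-4 had a log2 fold change of -0.72 with resveratrol (adjusted p = 0.0329) and gst-25 one of -1.07 (adjusted p = 0.0324).

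Other genes lower with resveratrol had group means below control in suc-ste and further below it in suc-ste-res. For gst-12 the FPKM levels were 192 ± 9.26 in control, 41.7 ± 6.63 in suc, 95.4 ± 15.5 in ste, 50.8 ± 5.16 in suc-ste and 27.2 ± 7.62 in suc-ste-res, with log2 fold changes against control of -2 for suc-ste and -2.92 for suc-ste-res. For ugt-19 the group means went from 84 in control to 17 in suc-ste and 10.6 in suc-ste-res, and for C55A6.6 from 163 to 115 and 77.4, where suc-ste against control had an adjusted p of 0.0587 in edgeR. For nhr-155 they were 6.81, 1.11 and 0.216. The comparison with resveratrol and that of suc-ste with control use the same suc-ste libraries, so a high or low value there moves both, and neither pattern is independent of the other.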

How the data were processed

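RNA of whole worms was sequenced in 15 libraries of 5 groups. The authors mapped clean reads to WBcel235 with TopHat and deposited, for each gene, a raw fragment count and an FPKM value scaled to length and library size. Which tool counted the fragments, whether it used strand and how it handled multiply mapped reads are not given in the sources used here, and 3 deposited tables of the authors' own calls were not used. Gene names came from the deposited tables and RefSeq by ID and place. Here, counts of the 6 libraries were filtered (filterByExpr), scaled by TMM and tested with the quasi-likelihood F test in edgeR 4.0.16 (R 4.3.3), with Benjamini-Hochberg adjustment over 12591 genes; intervals come from the same test. The fit was tested on simulated data. FPKM served for levels across groups and as an alternative (limma 3.58.1, log2 with pseudocounts 1 and 0.1). DESeq2 1.42.0, other scalings, filters and samples were alternatives.

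Named genes were those with an adjusted p of 0.05 or less, the 10 smallest p and 5 largest changes each way without overlap and with a mean count of at least 50, a list the study drew up from these libraries, and up to 3 list members each way. Genes named beyond this rule (ugt-9 to ugt-12, ugt-36, ugt-39, H23N18.5, sir-2.1, abu-11, daf-16, skn-1, spe-15, gspd-1, alh-5) were chosen after their values were seen or for their known role. Members and lists were chosen with earlier results of these data known. The labels do not say that the 3 libraries of a group came from separate cultures, so p values may measure technical spread. For a single value, an exact permutation test of 3 against 3 libraries cannot go below 0.10.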

Additional observations from a re-analysis of the deposited data

How the results depend on the processing

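The count of 2 DEGs was 10 with the DESeq2 test (6 higher, 4 lower), 5 with all 15 libraries in the fit (R02C2.7, ugt-41, ugt-8, ugt-13 and gst-25), 1 at an adjusted p of 0.01 and 1 with limma on log2(FPKM + 1). It was 0 with the replicate block, which also gave 266 genes at an unadjusted p of 0.05 or less. Deviations of same-numbered libraries had correlations of 0.005, -0.246 and -0.421, and those of the third suc-ste and second suc-ste-res library 0.35. So few values cannot decide whether same-numbered libraries shared a preparation. Leaving out single libraries gave 0 to 2 DEGs, with 0 without the first suc-ste library. The 553 genes at an unadjusted p of 0.05 or less became 347 with all 15 libraries and 317 to 774 without single libraries. Chosen after seeing the data, a fit without the third suc-ste and second suc-ste-res library gave 4 DEGs and 824 such genes, and one with the oocyte list mean as a covariate gave 4 DEGs and 1354 such genes. The share of intervals inside 2-fold ranged from 72% without the low-count filter to 98.1% for genes with a mean of at least 50 counts, and no other setting moved it beyond 82.7% to 95%. Of the 260 genes the naming rule gives, 207 kept their sign in every setting run. Of the 95 among them with an unadjusted p of 0.05 or below, which were picked for a clear difference, 93 did. C54F6.5 turned to 1.15 and 1.17, and trx-4 to -0.09 both times, with limma on log2(FPKM + 1) and log2(FPKM + 0.1). The medians of the gst, ttr, lysozyme and fatty acid oxidation lists were below 0 in every setting run. The same held for other lists, among them the short-chain dehydrogenases (-0.138 to -0.071), UDP-glucuronosyltransferases (-0.094 to -0.028) and antioxidant enzymes (-0.105 to -0.034). The settings reuse the same libraries. Genes under 50 counts set the limit of depth.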

Other observations

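Chromosome V held more of the differing genes than its share of the genes tested. Of 2462 tested genes on V (19.6% of all), 160 were at an unadjusted p of 0.05 or less (6.5%), 53 higher and 107 lower, while the shares on the other chromosomes were 2.95% (III) to 4.27% (IV). Of the 22 leading genes with a position, 15 lay on V, among them R02C2.7, ugt-41 and the run of ugt genes. This was noticed after the values were seen and no test was run.

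Small metabolic lists not described above gave few differences. The methylmalonyl-CoA epimerase gene mce-1 of propionate breakdown had 108, 102 and 115 CPM in suc-ste and 92.5, 87.1 and 90.3 CPM in suc-ste-res, without overlap and with a log2 fold change of -0.27 (95% interval, -0.44 to -0.10; edgeR adjusted p = 0.999), while 6 of the 8 genes of that list were above 0. Among 198 F-box genes, 4 were higher and 1 lower at an unadjusted p of 0.05 or less, and among 82 neuropeptide genes 1 was higher and none lower. For F-box genes that is 2.02% higher and 0.505% lower, and for neuropeptide genes 1.22% higher. Over all genes, 1.76% were higher and 2.64% lower.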
